A study of Mus musculus with 4 samples.

Results

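The ATP-binding cassette (ABC) genes encode a large family of membrane transporters and a few soluble relatives. They were taken as all genes of the deposited table whose symbol is Abc, a subfamily letter from a to g, a number and at most 1 further letter. This gave 50 of 54232 genes, with 16 in subfamily A, 10 in B, 10 in C, 4 in D, 1 in E, 3 in F and 6 in G. Poly(A) RNA of mouse kidney, collected at 60 days of age, had been sequenced in 4 libraries. Libraries labelled HET (2) came from mice carrying 1 LacZ allele of Tshz3 (Tshz3+/LacZ), and WT libraries (2) from wild-type mice. Each library was a pool of RNA, with 3 kidneys named per group, and the labels do not say whether the pools of a genotype hold different kidneys. The p-values therefore reflect the variation among these pools alone, which may be technical. The labels give no sex, strain, litter, LacZ allele structure or treatment. Tshz3, a zinc-finger transcription factor gene, was at 0.833 and 0.760 TPM in the libraries labelled HET, against 0.653 and 0.723 TPM in the WT libraries. The targeted gene was thus not lower where the labels say heterozygous, and every direction below is that of the libraries as labelled.

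ABC transporters couple the binding and hydrolysis of ATP at paired cytoplasmic domains to the movement of lipids, conjugates, drugs, peptides or metabolites across a membrane. In the proximal tubule of the kidney, exporters in the apical membrane release drugs, urate and glutathione or glucuronide conjugates into the urine, after uptake carriers have brought such compounds in from the blood. Other members sit in mitochondria, peroxisomes and lysosomes of most cells, and the E and F proteins lack membrane domains and act on ribosomes.

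The libraries held 62631750 and 70792042 recovered reads under the HET label and 70319173 and 70717617 in WT. Levels are TPM, a library's transcripts corrected for exon length, after scaling between libraries. Markers of kidney were present in every library: the 9 proximal tubule markers summed to 35354 and 48983 TPM under the HET label, against 92957 and 49424 TPM in WT, most of it Kap. Of 8 adrenal markers 4 were at 0 in some library, and Star was the only one above 1 TPM in any, at 1.91 and 2.33 TPM under the HET label and 1.98 and 2.10 TPM in WT. Traits of the pools that no label gives also differed. The 4 Y-linked genes summed to 8.63 and 39.3 TPM under the HET label, against 51.6 and 34.5 TPM in WT. X-linked Xist was at 60.5 and 57.7 TPM under the HET label, against 18.1 and 39.7 TPM in WT. The 5 lymphocyte markers summed to 2.26 and 17.4 TPM under the HET label, against 1.62 and 3.42 TPM in WT. Over the whole table limma, a linear model with moderated variances, called 2 of 22356 genes (0.00895%) at an adjusted p below 0.1, with 0.00447% in each direction.

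Levels were very uneven across the family, and 3 genes carried 48.6% of its TPM. Abca3, a phospholipid transporter best known from the lamellar bodies of lung cells, was the highest at 219 and 202 TPM in the libraries labelled HET, against 252 and 220.3 TPM in the WT libraries. Abcd3, which encodes the peroxisomal membrane protein PMP70, had 103 and 109.7 TPM (labelled HET) against 136 and 130.3 TPM (WT). The third was Abcg2, the apical urate and drug exporter also called breast cancer resistance protein, with 95.6 and 89.0 TPM (labelled HET) against 119.9 and 102 TPM (WT). The order of these 3 genes was the same in all 4 libraries. A further 13 genes averaged between 10 and 100 TPM, 20 between 1 and 10 TPM and 14 below 1 TPM. Summed over all members, the family came to 912 and 860 TPM under the HET label and 969 and 916 TPM in WT. That direction depends on the scaling. With the TPM as deposited the sums were 966 and 969 TPM under the HET label and 832 and 894 TPM in WT. The family took 0.313% and 0.303% of the reads under the HET label and 0.284% and 0.295% in WT.

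Below the leading genes, neighbours in the order of levels often could not be told apart. Abcf1 (51.7 TPM on average over the 4 libraries) and Abcc2 (44.9 TPM) came next, and their ranges did not overlap within either genotype. Abce1, Abcb8 and Abcf3 averaged 32.4, 31.8 and 29.3 TPM, and the ranges of these neighbours over the 4 libraries overlapped. Subfamily A held 32.3% of the family's TPM, most of it from Abca3 (24.4%) and Abca2 (2.77%). Subfamily D held 15.5%, F 13.0%, B 12.3%, C 11.7% and G 11.7%, and the lone E gene 3.54%.

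**Figure D1:**
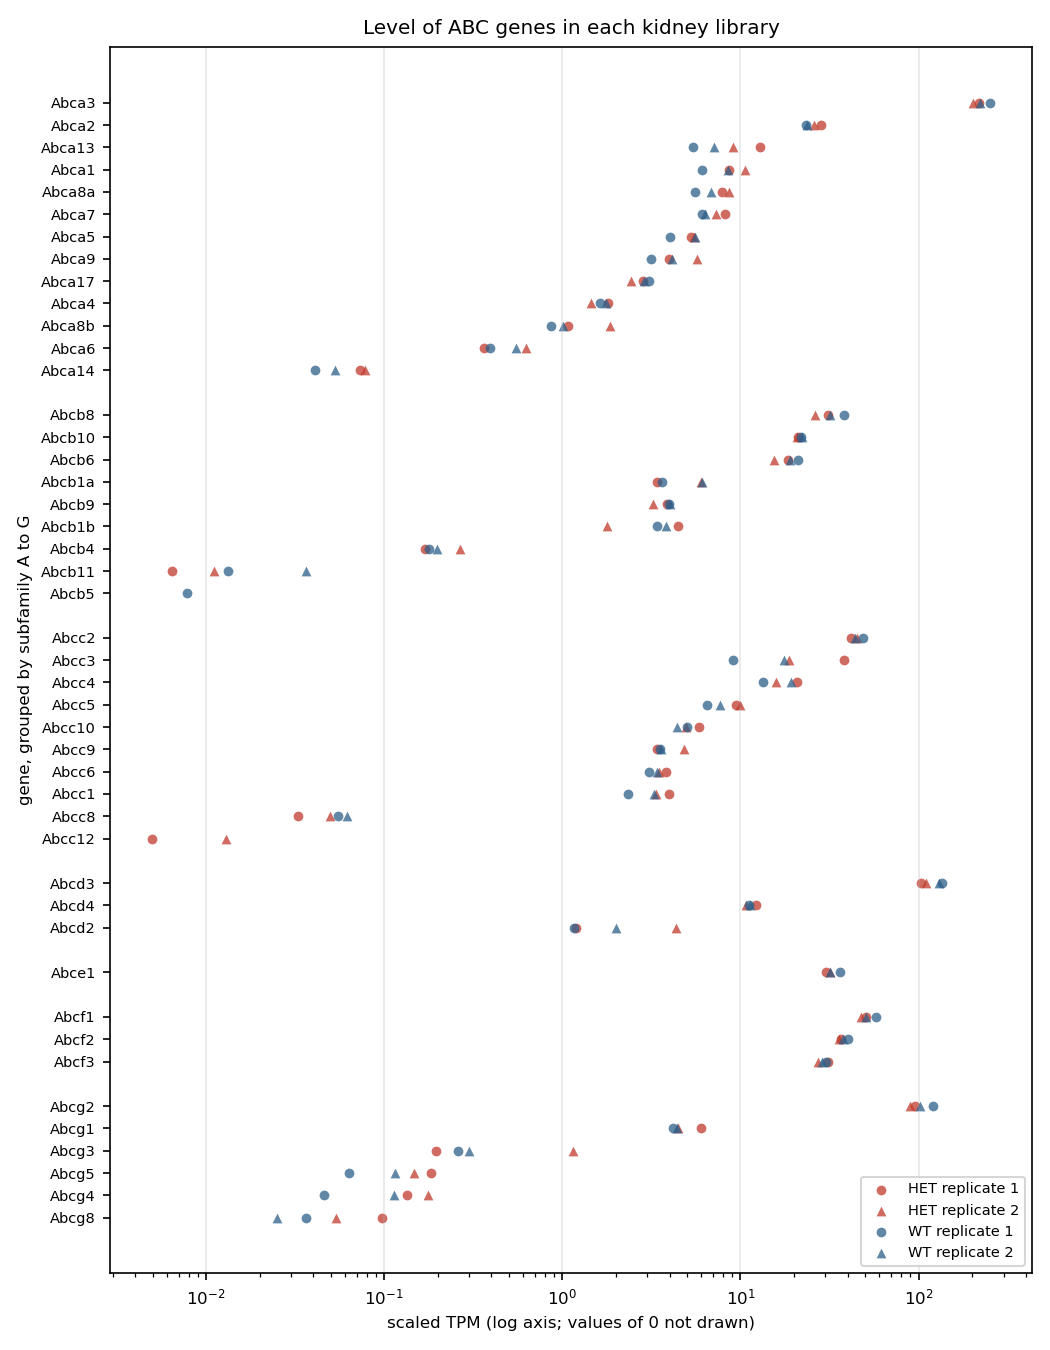
Scaled TPM (log axis) of 45 of the 47 ABC genes with a read, by subfamily; red marks are the libraries labelled HET, blue the WT libraries, circles replicate 1 and triangles replicate 2. Abca3, Abcd3 and Abcg2 stand above the rest in all 4 libraries, and the marks of Abcc3, Abcd2 and Abcg3 are spread widely.

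The sequences upstream of the most abundant members differed in composition, and they are shown together with those of a low neighbour of Abca3 and of the gene with the smallest p in the comparison of genotypes. RefSeq promoters (GRCm38.p6, the mm10 assembly; 250 bases before to 50 after a start) were matched by symbol for 38 of the 50 genes, taking the start nearest that of the deposited table, which lay within 1000 bases for 36. Capitals mark a GC box (GGGCGG) or a TATA box (TATAAA) on either strand, motifs that cannot overlap each other.
Abca3: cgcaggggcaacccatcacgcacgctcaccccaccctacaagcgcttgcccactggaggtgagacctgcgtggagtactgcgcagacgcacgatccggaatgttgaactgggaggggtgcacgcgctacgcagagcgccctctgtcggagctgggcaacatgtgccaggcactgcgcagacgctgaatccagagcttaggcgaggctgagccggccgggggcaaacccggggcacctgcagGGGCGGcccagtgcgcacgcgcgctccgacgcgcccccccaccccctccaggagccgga
Abcd3: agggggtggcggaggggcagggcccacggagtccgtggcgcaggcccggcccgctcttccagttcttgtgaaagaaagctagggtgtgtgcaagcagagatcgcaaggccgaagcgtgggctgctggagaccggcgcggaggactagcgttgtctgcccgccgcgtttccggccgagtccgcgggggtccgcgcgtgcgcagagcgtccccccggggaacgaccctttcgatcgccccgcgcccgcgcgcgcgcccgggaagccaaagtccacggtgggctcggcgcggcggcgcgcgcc
Abcg2: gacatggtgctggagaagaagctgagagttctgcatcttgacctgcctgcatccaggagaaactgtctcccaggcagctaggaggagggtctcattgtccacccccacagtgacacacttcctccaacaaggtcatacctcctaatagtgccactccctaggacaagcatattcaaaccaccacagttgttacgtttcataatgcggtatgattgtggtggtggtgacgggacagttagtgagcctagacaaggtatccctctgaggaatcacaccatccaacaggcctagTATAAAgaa
Abca17: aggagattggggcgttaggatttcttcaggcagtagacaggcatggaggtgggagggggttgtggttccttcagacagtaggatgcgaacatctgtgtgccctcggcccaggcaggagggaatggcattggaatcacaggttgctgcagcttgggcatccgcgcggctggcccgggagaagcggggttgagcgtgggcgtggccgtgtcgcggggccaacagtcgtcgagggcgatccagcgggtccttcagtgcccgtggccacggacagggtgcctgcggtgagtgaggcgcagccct
Abca13: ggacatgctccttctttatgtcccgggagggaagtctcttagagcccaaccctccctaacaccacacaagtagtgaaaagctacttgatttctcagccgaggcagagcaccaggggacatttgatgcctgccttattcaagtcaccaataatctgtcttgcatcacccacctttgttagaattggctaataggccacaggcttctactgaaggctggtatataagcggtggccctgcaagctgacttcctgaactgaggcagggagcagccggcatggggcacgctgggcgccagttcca
These lie at chr17:24351773-24352072 (plus strand), chr3:121815253-121815552 (minus), chr6:58584283-58584582 (plus), chr17:24351010-24351309 (minus) and chr11:9191692-9191991 (plus), each written 5′ to 3′ along its gene.

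The Abcd3 window held 45 CpG dinucleotides and neither motif, and that of Abca3 29 CpG and 1 GC box. The Abcg2 window held 3 CpG and 1 TATA box, which lay after the listed start. Abca17 starts 964 bases from Abca3 on the opposite strand, its window held 21 CpG and neither motif, and its level was 2.83 and 2.42 TPM (labelled HET) against 3.08 and 2.86 TPM (WT). The Abca13 window held 6 CpG and no exact match to either motif. It does hold the stretch tatataag, which is close to a TATA box but is left out by a search for TATAAA alone. Over the 38 windows, a GC box was present in 7 of 12 genes at 10 TPM or more, in 8 of 15 between 1 and 10 TPM and in 2 of 11 below 1 TPM, against 43.1% of 20160 promoters in all. An exact TATAAA was present in 5 of the 38, against 13.2% of all. The median number of CpG was 26.5, 16 and 9 in these classes of level, and 11 over all promoters. These are descriptions of the letters in the windows.

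No ABC gene passed the limma test between genotypes. Of the 50 genes, 43 had enough reads to be tested, and 0 were called by limma over all genes, with a lowest adjusted p of 0.622. At an unadjusted p below 0.05 there were 3 members, Abca13, Abcc5 and Abca8a, all higher in the libraries labelled HET, which is 6.98% of those tested. Of all genes 7.26% had such a p, 3.81% higher and 3.46% lower. The log2 fold changes, on the log2(TPM + 0.5) scale that understates changes of low genes, ran from -0.32 (Abcd3) to 1.04 (Abcc3), with a median of 0.056 against 0.0067 over all genes. For 37 of the 43, the 95% confidence interval on that scale lay within a 2-fold change in either direction. For the scarcest members this does not bound the change in TPM itself. Abcg5, which is among the 37, had a log2 fold change of 0.18 but a HET over WT ratio of mean TPM of 1.86. Both libraries labelled HET lay above both WT libraries for 14 genes, 32.6% where 21.8% of all genes did, and below for 10, 23.3% where 23.1% of all genes did. In bulk RNA, fewer cells of a type and less RNA per cell cannot be told apart.

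Abundant and scarce members leaned in different directions, as did genes of the same levels in general. Among the 16 tested members at 10 TPM or more, 12 had a log2 fold change below 0 and the median was -0.11, where the 8569 genes of that level in the table had a median of -0.12. Both libraries labelled HET lay below both WT libraries for 7 of those 16, where 40.7% of genes at that level did. Among the 20 members between 1 and 10 TPM, 15 were above 0 with a median of 0.21, where the 8834 genes of that level had a median of 0.069. Both libraries labelled HET lay above WT for 9 of these 20, where 26.8% of genes at that level did. These counts depend on the scaling: with the TPM as deposited the median of all genes was 0.20 and that of the members 0.22, 38 of 43 members were above 0, and 27 lay above and 0 below without overlap, where 49.7% and 4.45% of all genes did.

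**Figure D2:**
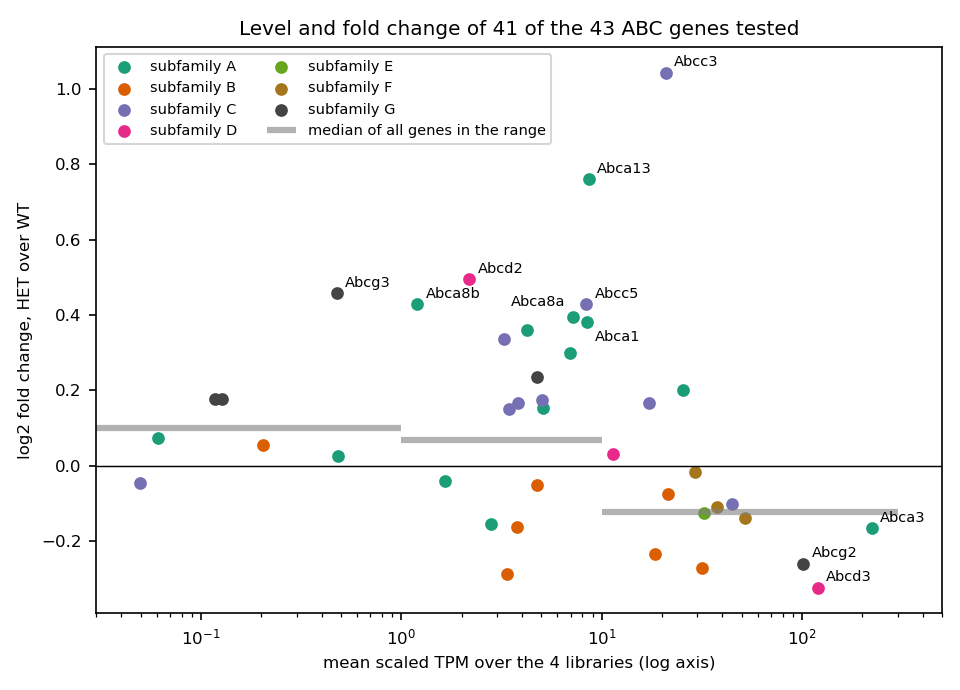
Log2 fold change of the libraries labelled HET over WT against mean scaled TPM (log axis) for 41 of the 43 genes tested, coloured by subfamily; grey bars are the medians of all genes tested below 1, from 1 to 10 and at 10 TPM or more. Members at 10 TPM or more lie mostly below 0, around the grey bar at -0.12, though without scaling 5 of the 43 genes in all are below 0, while Abcc3 and Abca13 stand highest.

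**Figure D3:**
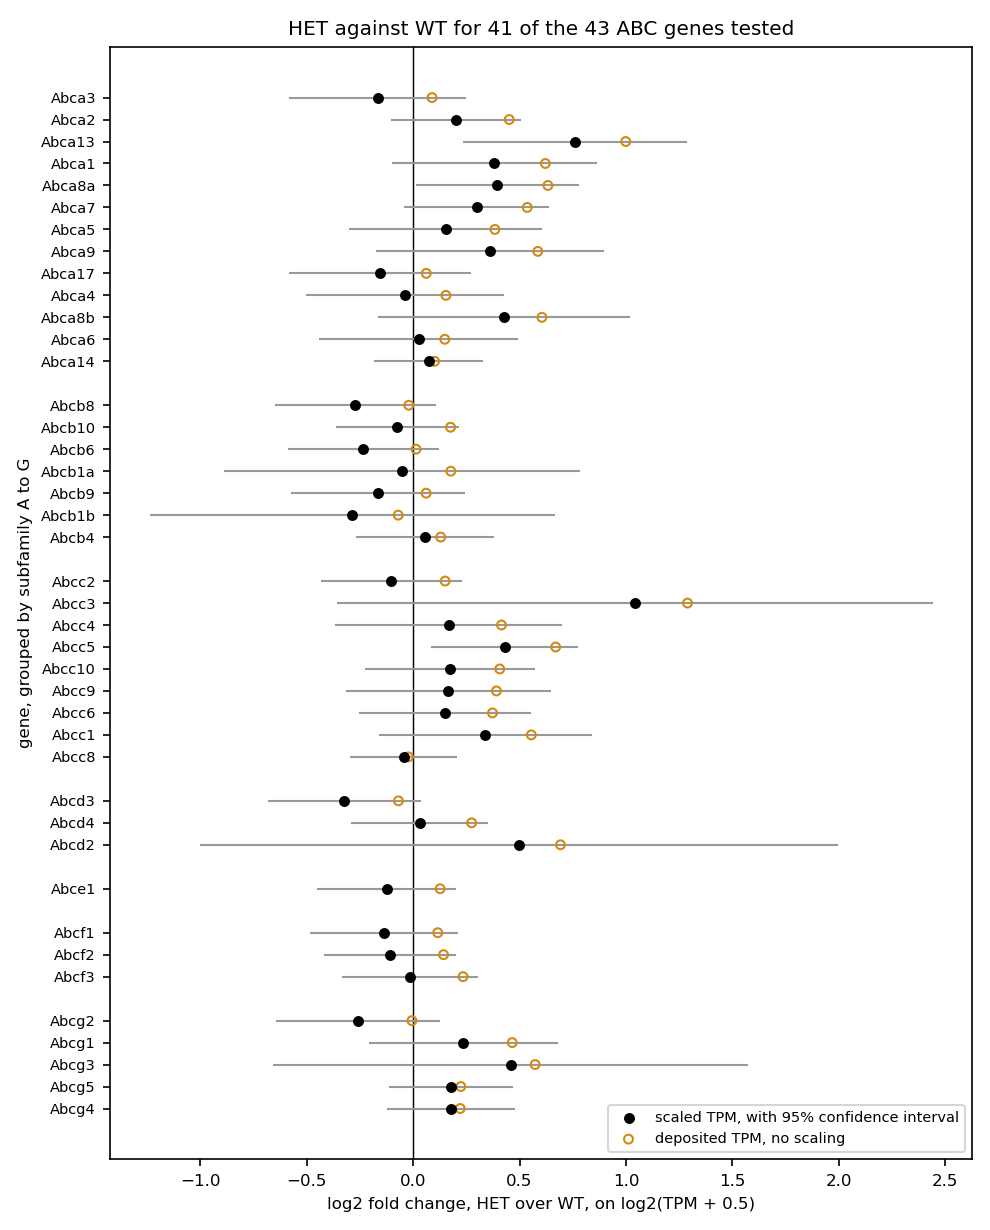
Log2 fold change (black, with its 95% confidence interval from limma) of 41 of the 43 genes tested, by subfamily, with open orange circles for the TPM as deposited, without scaling. The intervals of Abca13, Abcc5 and Abca8a exclude 0 before adjustment over all genes, and the orange circles lie to the right of the black ones throughout.

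Subfamily A encodes full-length lipid transporters. Of its 13 tested members 10 were above 0 and 3 below (Abca3, Abca17 and Abca4), with a median of 0.20, and all 13 were above 0 without scaling. Both libraries labelled HET lay above both WT libraries for 7 of the 13, where 21.8% of all genes and 26.8% of those between 1 and 10 TPM did. Abca13 (ENSMUSG00000004668, chromosome 11, 9191942 to 9684259), the longest protein of the subfamily, was at 12.9 and 9.08 TPM in the libraries labelled HET, against 5.38 and 7.13 TPM in the WT libraries. The lower of the libraries labelled HET was thus above the higher WT library, and replicate 1 of HET stood apart above the rest. The log2 fold change was 0.76 ± 0.22 (SE) (limma unadjusted p = 0.0122, adjusted p = 0.622), 0.52 without HET replicate 1 and 1.01 without HET replicate 2. Abca13 is the 1 member among the 97 genes of the authors' deposited table, 0.434% of the genes tested here, with a log2 fold change there of 0.63 ± 0.18 (SE) and an adjusted p of 0.0960. That adjusted p is below the 0.1 used for calls here, and it comes from the same 4 libraries. On them limma called 2 genes over the whole table, and Abca13 was not called.

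Abca1 moves cholesterol and phospholipid out of cells onto apolipoprotein A-I. It was at 8.60 and 10.5 TPM under the HET label and 6.05 and 8.53 TPM in WT, so that the upper WT library lay just under the lower library labelled HET. Its log2 fold change was 0.38 ± 0.20 (SE), and 0.15 without WT replicate 1. Abca7, its close relative with roles in phospholipid handling and phagocytosis, was at 8.16 and 7.30 TPM (labelled HET) against 6.06 and 6.30 TPM (WT). These ranges did not overlap, and the log2 fold change was 0.30 ± 0.14 (SE). The lysosomal and brain-rich Abca2 gave 28.4 and 25.9 TPM (labelled HET) against 23.3 and 23.7 TPM (WT), also without overlap, a log2 fold change of 0.20. For Abca3 the WT libraries were higher, WT replicate 1 the most, and the log2 fold change was -0.17 ± 0.17 (SE), which became 0.089 without scaling. Exons of Abca3 share 10.4% of their bases with those of D330041H03Rik on the opposite strand, itself at 134 TPM on average, and no label says whether reads were counted by strand.

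Abca5, Abca6, Abca8a, Abca8b and Abca9 lie side by side on chromosome 11 (109932190 to 110337716), all on the minus strand. Their average levels over the 4 libraries were 5.08, 0.482, 7.22, 1.20 and 4.24 TPM. All 5 had a log2 fold change above 0, from 0.026 for Abca6 to 0.43 for Abca8b, and for 2 both libraries labelled HET lay above both WT libraries, where 26.8% of all genes between 1 and 10 TPM did. Abca8a was at 7.84 and 8.68 TPM in the libraries labelled HET, against 5.54 and 6.83 TPM in the WT libraries. Its log2 fold change was 0.40 ± 0.16 (SE) (limma unadjusted p = 0.0451, adjusted p = 0.622) and 0.26 without WT replicate 1. Abca8b had 1.08 and 1.86 TPM (labelled HET) against 0.868 and 1.00 TPM (WT), where the HET replicate 2 library alone was well above the others. Without that library its log2 fold change was 0.14 in place of 0.43. HET replicate 2 was the highest library for Abca6, Abca8a, Abca8b and Abca9, and WT replicate 1 the lowest for Abca5, Abca8a, Abca8b and Abca9. Reads of stretches alike among these relatives may have been split or lost in counting.

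Multidrug and conjugate exporters belong to the B, C and G subfamilies. Of 11 such genes 10 were tested, of which 6 had log2 fold changes above 0 and 4 below, with a median of 0.16 (0.39 without scaling), and 0 were called. The most abundant of them were Abcg2 and Abcc2, apical exporters of the proximal tubule. Abcg2 (ENSMUSG00000029802, chromosome 6, 58584523 to 58695676) was lower in both libraries labelled HET, with a log2 fold change of -0.26 ± 0.16 (SE) and -0.0055 without scaling. Abcc2, the apical exporter MRP2 of glutathione and glucuronide conjugates, was at 41.6 and 45.0 TPM in the libraries labelled HET, against 48.8 and 44.2 TPM in the WT libraries. The ranges overlapped, and the log2 fold change of -0.10 ± 0.14 (SE) turned to 0.15 without scaling. Abcc4 (MRP4), which exports urate, prostaglandins and cyclic nucleotides, had 20.8 and 15.7 TPM under the HET label and 13.4 and 19.2 TPM in WT. Its pools overlapped, since WT replicate 2 lay above HET replicate 2, and its log2 fold change of 0.17 became -0.083 without WT replicate 1.

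Abcc3 (ENSMUSG00000020865, chromosome 11, 94343295 to 94392997), which exports glucuronides and bile acids across the basolateral membrane, had the highest log2 fold change in the family and wide spread within each genotype. Its level was 38.0 and 18.7 TPM in the libraries labelled HET, against 9.09 and 17.7 TPM in the WT libraries, or 28.4 ± 13.7 TPM under the HET label and 13.4 ± 6.06 TPM in WT (SD, n = 2 each). HET replicate 1 was the highest library and WT replicate 1 the lowest, while HET replicate 2 and WT replicate 2 lay close together. Its log2 fold change of 1.04 ± 0.50 (SE) had wide 95% confidence limits of -0.36 and 2.44 (limma unadjusted p = 0.106, adjusted p = 0.622). Without HET replicate 1 it was 0.54, and without WT replicate 1 it was 0.58. Genes with a known male bias in mouse kidney ran the other way. All 8 had a log2 fold change below 0 (median -1.22), and 1 had a limma unadjusted p below 0.05. For 4 of them both libraries labelled HET lay below both WT libraries. Of all genes 23.1% did, and 40.7% of those at 10 TPM or more, as these 8 were. The 8 genes summed to 31787 and 47215 TPM under the HET label, against 92992 and 47449 TPM in WT, most of it Kap, with none at 0. Cyp7b1 from that list was at 25.5 and 81.8 TPM (labelled HET) against 169.7 and 117 TPM (WT), and the Y-linked Ddx3y at 4.02 and 17.0 TPM (labelled HET) against 21.1 and 16.2 TPM (WT). The part of sex in the Abcc3 values was not tested.

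Abcc5, an exporter of cyclic nucleotides and heme, was close between the pools of a genotype. It was at 9.41 and 9.92 TPM in the libraries labelled HET, against 6.51 and 7.63 TPM in the WT libraries, without overlap, and the libraries labelled HET differed by a factor of 1.05. The log2 fold change was 0.43 ± 0.14 (SE) (limma unadjusted p = 0.0227, adjusted p = 0.622) and 0.32 without WT replicate 1. Abcc1 (MRP1), the glutathione-conjugate exporter of most cells, was at 3.95 and 3.36 TPM (labelled HET) against 2.34 and 3.29 TPM (WT), barely apart, for a log2 fold change of 0.34. Abcc6, whose loss in humans causes the calcifying disease pseudoxanthoma elasticum, was at 3.84 and 3.48 TPM (labelled HET) against 3.07 and 3.42 TPM (WT) with a log2 fold change of 0.15. Its ranges were also barely apart.

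Mice have 2 genes for P-glycoprotein, the broad drug exporter, and in these kidneys they varied by pool and not in step. Abcb1a was at 3.40 and 5.97 TPM in the libraries labelled HET, against 3.62 and 6.08 TPM in the WT libraries. Replicate 2 was the higher library in both genotypes, and the log2 fold change was -0.051 ± 0.33 (SE). Its neighbour Abcb1b (chromosome 5, 8798147 to 8866315) was at 4.44 and 1.78 TPM in the libraries labelled HET, against 3.39 and 3.81 TPM in the WT libraries. HET replicate 2 was the lowest library here and HET replicate 1 the highest, so that the WT libraries fell between them. The log2 fold change of -0.29 ± 0.38 (SE) was -0.84 without HET replicate 1 and 0.27 without HET replicate 2. The same limit of counting holds for stretches shared by both genes. Beside Abcb1a, the 6 fat markers summed to 139 and 247 TPM under the HET label, against 137 and 237 TPM in WT. The 4 red blood cell genes summed to 794 and 1825 TPM under the HET label, against 1163 and 2271 TPM in WT. Both sums were higher in replicate 2 of each genotype. Of the fat markers, Ucp1 and Cidea ran the other way under the HET label, at 11.1 and 8.70 TPM and at 18.7 and 18.2 TPM. None of the fat or red cell genes was at 0 in a library, and their part in the Abcb1a values was not tested.

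Cholesterol and phospholipid transporters of the A, B and G subfamilies made a group of 8, of which 6 were tested. All 6 had log2 fold changes above 0, with a median of 0.21 (0.34 without scaling), and 0 were called. Both libraries labelled HET lay above both WT libraries for 5 of the 6, of which 3 averaged between 1 and 10 TPM, where 26.8% of all genes did, and 2 below 1 TPM, where 33.6% did. Abcg1, which passes cholesterol to high-density lipoprotein, was at 5.98 and 4.46 TPM in the libraries labelled HET, against 4.20 and 4.42 TPM in the WT libraries. HET replicate 1 stood above the other 3 libraries, and the log2 fold change of 0.24 ± 0.18 (SE) was 0.043 without it. Abcg5 and Abcg8, which form an obligate sterol exporter of liver and intestine, were near absent. Abcg5 had 15 and 14 reads in the libraries labelled HET and 5 and 10 in WT, and Abcg8, with 11 and 7 reads under the HET label and 4 and 3 in WT, was not tested. Abcb4, the phosphatidylcholine translocator of bile, was at 0.170 and 0.265 TPM (labelled HET) against 0.179 and 0.199 TPM (WT). Abcb11, the bile salt export pump, had 1 and 2 reads in the libraries labelled HET and 2 and 6 in WT. Abca1 and Abcg1 are known from macrophages, and beside them 8 of 9 macrophage markers were higher in both libraries labelled HET than in both WT libraries, where 21.8% of all genes were. These markers summed to 671 and 515 TPM under the HET label, against 352 and 364 TPM in WT, most of it Cd74, with none at 0. The marker that overlapped was Csf1r, at 39.8 and 31.9 TPM (labelled HET) against 40.6 and 33.6 TPM (WT). The part of the macrophage markers in Abca1 and Abcg1 was not tested.

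Mitochondrial members with values given here are Abcb6, Abcb8 and Abcb10. Their log2 fold changes were -0.23, -0.27 and -0.074 with scaling, and 0.014, -0.020 and 0.18 without it. In each, both libraries labelled HET lay below both WT libraries, as 40.7% of all genes at 10 TPM or more did. Abcb8, of the inner membrane, was at 31.1 and 26.4 TPM in the libraries labelled HET, against 38.0 and 31.7 TPM in the WT libraries. Abcb10, which takes part in heme synthesis, had 21.2 and 20.7 TPM (labelled HET) against 21.9 and 22.2 TPM (WT). The pools of each genotype differed by a factor of 1.02, and the log2 fold change had an SE of 0.12. Abcb6, a porphyrin transporter, shares 55.2% of its exon bases with Gm29253 on the same strand, so its level of 18.6 and 15.3 TPM (labelled HET) against 21.0 and 19.0 TPM (WT) may hold reads of both.

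Peroxisomal transporters import fatty acids for oxidation. Abcd3 (ENSMUSG00000028127, chromosome 3, 121758774 to 121815302), which brings in branched-chain and bile acid precursors, had the lowest log2 fold change in the family, -0.32 ± 0.15 (SE) (limma unadjusted p = 0.0711, adjusted p = 0.622). Its means were 106 ± 4.89 TPM under the HET label and 133 ± 3.81 TPM in WT (SD, n = 2 each), and the pools of a genotype lay close together and apart from those of the other. Without scaling the log2 fold change was -0.069, and over the settings in which 1 library was left out it ran from -0.37 to -0.28. Abcd2, a relative that is rich in fat tissue, was at 1.19 and 4.36 TPM in the libraries labelled HET, against 1.16 and 1.99 TPM in the WT libraries. HET replicate 2 had 3.65 times the level of HET replicate 1, the largest ratio between pools among members of at least 1 TPM. Its log2 fold change of 0.50 ± 0.56 (SE) changed sign without that library (-0.27). The 6 fat markers did not share 1 order of libraries. Adipoq, Cidec, Fabp4 and Plin1 were highest in HET replicate 2, among them Plin1, for the perilipin of fat droplets, at 7.52 and 17.8 TPM (labelled HET) against 5.89 and 11.8 TPM (WT). Ucp1 and Cidea were lowest in HET replicate 2, with Ucp1, for the uncoupling protein of brown fat, at 11.1 and 8.70 TPM (labelled HET) against 17.7 and 34.7 TPM (WT). The fat markers' part in the Abcd2 values was not tested.

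In the lysosome, Abcd4 exports cobalamin (vitamin B12). It was at 12.3 and 10.8 TPM in the libraries labelled HET, against 11.2 and 11.3 TPM in the WT libraries, overlapping, with a log2 fold change of 0.030 ± 0.13 (SE). Abcb9, a lysosomal peptide carrier, had 3.88 and 3.21 TPM (labelled HET) against 3.99 and 4.03 TPM (WT) and a log2 fold change of -0.16, which was 0.061 without scaling. With Abca2 and Abca5 the 4 lysosomal genes had a median of 0.092.

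The soluble members of subfamilies E and F were abundant and even across the libraries. Abce1, which splits ribosomes at the end of translation, was at 30.2 and 31.7 TPM in the libraries labelled HET, against 36.0 and 31.7 TPM in the WT libraries. Abcf1, a factor in the initiation of translation, had 50.8 and 47.5 TPM under the HET label and 57.9 and 50.5 TPM in WT. Abcf2 had 36.5 and 35.8 TPM (labelled HET) against 40.2 and 37.9 TPM (WT), and Abcf3 30.9 and 27.4 TPM (labelled HET) against 30.0 and 28.8 TPM (WT). The log2 fold changes of these 4 were -0.12, -0.14, -0.11 and -0.016, and without scaling 0.13, 0.12, 0.14 and 0.23. Only Abcf2 had ranges that did not overlap.

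Several members known mainly from other tissues had few or no reads. Abca12 of the epidermis and the neighbours Abca15 and Abca16 had 0 reads in all 4 libraries, Abcb5 had 1 read in WT replicate 1, and Abcc12 had 1 and 3 reads in the libraries labelled HET and 0 in WT. Abcc8, the sulfonylurea receptor SUR1 of pancreatic beta cells, had 8 and 14 reads in the libraries labelled HET and 13 and 16 in WT. Abcc9, the SUR2 receptor of vessels and smooth muscle, was at 3.41 and 4.82 TPM in the libraries labelled HET, against 3.53 and 3.60 TPM in the WT libraries. HET replicate 2 was the highest, and without it the log2 fold change of 0.17 became -0.058. Its partner Kcnj8, the pore of that potassium channel, had 5.76 and 7.04 TPM (labelled HET) against 6.20 and 7.67 TPM (WT). Abcg3, a rodent relative of Abcg2, was at 0.196 and 1.14 TPM in the libraries labelled HET, against 0.261 and 0.298 TPM in the WT libraries, so HET replicate 2 was far above the others. Its log2 fold change of 0.46 ± 0.43 (SE) was -0.16 without that library. All 5 lymphocyte markers were highest in HET replicate 2 as well, among them the B cell gene Cd79a at 0.342 and 5.73 TPM (labelled HET) against 0.235 and 0.917 TPM (WT), and none was at 0; their part was not tested.

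**Figure D4:**
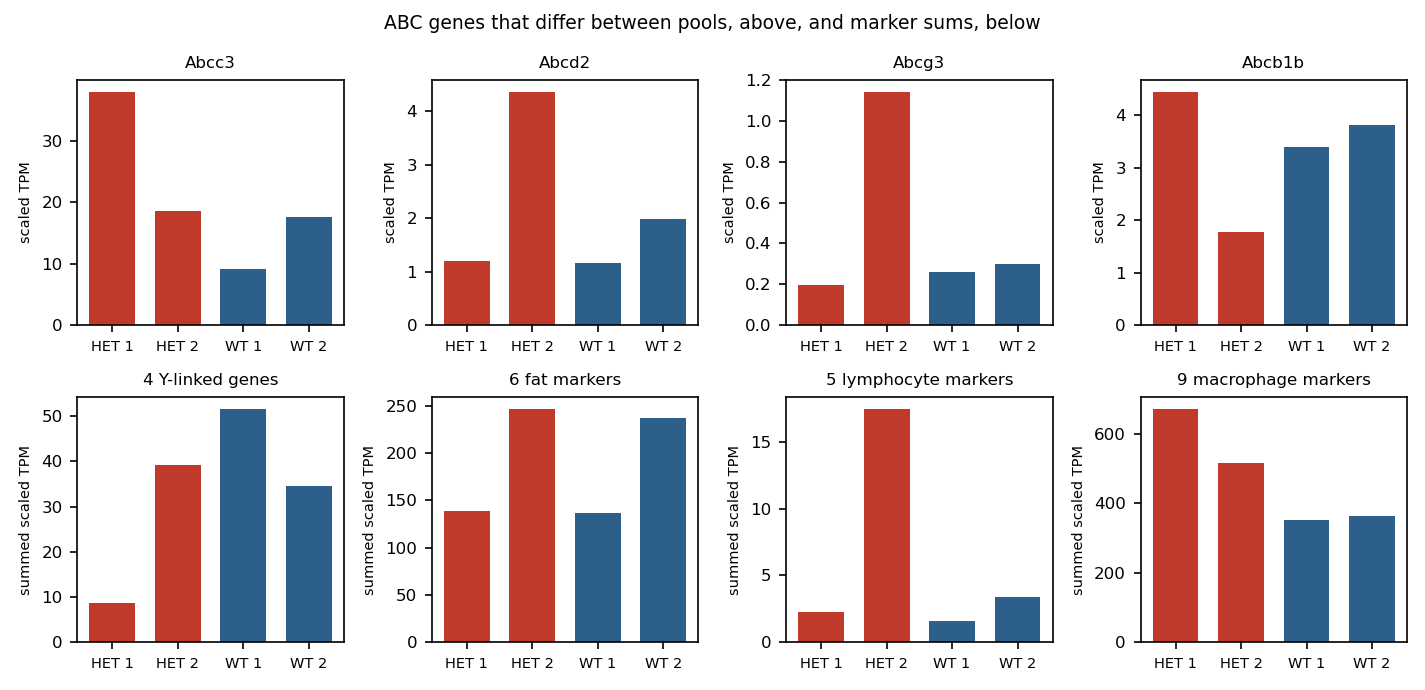
Scaled TPM of Abcc3, Abcd2, Abcg3 and Abcb1b (top) and summed scaled TPM of 4 Y-linked, 6 fat, 5 lymphocyte and 9 macrophage markers (bottom) in the 4 libraries, red labelled HET and blue WT; bars start at 0 and each is 1 library. Abcd2 and Abcg3 are highest in HET replicate 2, as is the lymphocyte sum. The fat sum is close between HET replicate 2 and WT replicate 2, at 247 and 237 TPM. Abcc3 is highest in HET replicate 1, where the Y-linked sum is lowest.

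Genes that work with ABC transporters, or belong to the family under other names, were compared in 11 lists holding 64 genes, all of them tested. With scaling, 22 had log2 fold changes above 0 and 42 below, and without scaling 48 above and 16 below. None was called (0 of 64), and 5 had an unadjusted p below 0.05, 7.81% where 7.26% of all genes did. The family members with other names are Cftr (a chloride channel) and the peptide transporters Tap1 and Tap2 of antigen presentation. All lay higher in both libraries labelled HET than in both WT libraries, as 21.8% of all genes did. The gap was small for Cftr, with a log2 fold change of 0.089. Tap1 was at 5.73 and 5.54 TPM in the libraries labelled HET, against 2.59 and 4.32 TPM in the WT libraries. Its log2 fold change was 0.67 ± 0.23 (SE) (limma unadjusted p = 0.0275, adjusted p = 0.622). Tap2 had 22.4 and 18.4 TPM (labelled HET) against 15.2 and 17.2 TPM (WT) and Cftr 2.76 and 2.78 TPM (labelled HET) against 2.51 and 2.63 TPM (WT). Uptake carriers of the tubule supply the exporters. Their median log2 fold change was -0.59 (-0.34 without scaling), and 5 of 6 genes were below 0, 4 of them without overlap. Of all genes 23.1% lay below without overlap, and 40.7% of those at 10 TPM or more. Slc22a6, the organic anion transporter OAT1, was at 312 and 397 TPM in the libraries labelled HET, against 768 and 463 TPM in the WT libraries (limma unadjusted p = 0.0373, adjusted p = 0.622). Slc22a12, a urate transporter, had 931 and 1134 TPM under the HET label and 2191 and 1406 TPM in WT (limma unadjusted p = 0.0319, adjusted p = 0.622). In both, WT replicate 1 was far above the other libraries. Slco4c1, a basolateral organic anion carrier, ran the other way with 2.56 and 3.12 TPM under the HET label and 1.53 and 1.17 TPM in WT (limma unadjusted p = 0.00507, adjusted p = 0.622).

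Partners within organelles mostly had log2 fold changes below 0 with scaling. Most of them were at 10 TPM or more, where the median over all genes was itself -0.12. All 6 peroxisomal partners were below 0 (median -0.20, and 0.054 without scaling). Of 8 heme and iron-sulfur partners 6 were below 0 (median -0.18, and 0.075 without scaling). The 4 cobalamin partners were all below 0 (median -0.091, and 0.16 without scaling). Of 5 ribosome recycling partners 3 were below 0 (median -0.19), of 4 peptide-loading partners 3 (median -0.11), and of 5 membrane scaffolds 3 (median -0.13); without scaling all 3 medians were above 0. Nuclear receptors and other regulators of ABC genes had a median of -0.030 (0.22 without scaling). For 6 of 13 both libraries labelled HET lay below both WT libraries. Of all genes 23.1% did, and 40.7% of those at 10 TPM or more. Lipid acceptors and liver X receptor targets had a median of 0.092 (0.32 without scaling). Their receptor genes Nr1h3 and Nr1h2 were at 40.5 and 41.1 TPM (labelled HET) against 53.2 and 46.3 TPM (WT) and at 47.9 and 41.1 TPM (labelled HET) against 53.1 and 46.8 TPM (WT).

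Of the 50 members, 23 fell into 9 groups of neighbours with gaps of at most 500 kb. Abcd3, at 119.6 TPM on average over the 4 libraries, lies next to Abca4 at 1.66 TPM on chromosome 3, and Abca3 next to Abca17 on chromosome 17. Abca4, a retinoid transporter of photoreceptors, was at 1.80 and 1.46 TPM (labelled HET) against 1.62 and 1.75 TPM (WT). On chromosome 16 Abcf3 (29.3 TPM) neighbours Abcc5 (8.37 TPM), and on chromosome 7 Abcc6 neighbours Abcc8. Abcb8 and Abcf2 on chromosome 5 were closer, at 31.8 and 37.6 TPM.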

How the data were processed

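Per the file headers, the authors deposited TPM values per gene with summed exon length (mm10, per the submitters' processing notes, which also name DESeq, DESeq2 and edgeR without versions), from alignments marked unique. The authors also deposited a comparison table of 97 genes with log2 fold changes, p-values, a score (the test statistic) and a mean normalized signal. The aligner, the counter and any strand setting were not given in the sources used here. TPM times exon length gave whole multiples of 1 read for 100% of values above 0 (tolerance 0.001 reads). Of these reads, trimmed-mean-of-M-values factors of 1.05 and 1.07 (libraries labelled HET) and 0.901 and 0.989 (WT) were computed, and TPM were rescaled to reads per exon length at those effective depths. Testing required 2 libraries with 10 reads or more (scaled to median depth) and 15 reads in total. It used limma 3.58.1 in R 4.3.3 (statmod 1.5.0) with a variance trend and robust moderation on log2(TPM + 0.5). Benjamini-Hochberg adjusted p-values cover all 22356 genes, called below 0.1. The fit was also run on reads simulated with the same variability for every gene, and without scaling. Its outcome is not given, and nothing about these pools is drawn from it. An exact permutation test of 2 against 2 libraries cannot give a two-sided p below 0.333. Members and gene lists were chosen with earlier results of these data known. Named members were those with an unadjusted p below 0.05, the 3 most abundant per subfamily, those in the authors' table, the 5 with the largest ratio between pools and listed members with known roles; others were added after their values were seen. Alternatives covered scaling, pseudocount, filter, robust moderation, limma-voom, a replicate block and leaving out each library. Protein features planned for the members could not be computed, as no protein table was used here. Values of some genes are not reported here. Depth limits the scarce genes most: the lowest count of a tested member in a library was 5 reads.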

Additional observations from a re-analysis of the deposited data

How the results depend on the processing

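For the 29 named members tested, 352 of 372 alternative values kept their direction and stayed uncalled by limma, and the lowest adjusted p was 0.143 (Abcg3 without HET replicate 1). Filters, robust moderation and the replicate block cannot change a log2 fold change, so those settings could only keep its direction. In 15 of the 29 members the sign changed under some setting. TPM without scaling turned Abca3 (0.089), Abcb10 (0.18), Abcb1a (0.18), Abcc2 (0.15), Abce1 (0.13), Abcf1 (0.12), Abcf2 (0.14) and Abcf3 (0.23) above 0. It also moved the members without overlap to 27 above and 0 below, and their median to 0.22. That median was 0.12 with a pseudocount of 0.1 and 0.17 with limma-voom, and from 0.021 to 0.090 with 1 library left out. Members without overlap then numbered 15 to 20 above and 13 to 18 below, but with 2 libraries against 1 such separation is more frequent for any gene. The share over all genes under these settings is not given, so these counts are no result about the members. With 1 library left out, the sign changed within these ranges: Abcb1a -0.42 to 0.31, Abcb1b -0.84 to 0.27, Abcb4 -0.040 to 0.15, Abcc4 -0.083 to 0.42, Abcc9 -0.058 to 0.39, Abcd4 -0.060 to 0.12, Abcd2 -0.27 to 1.26, Abcf3 -0.10 to 0.070 and Abcg3 -0.16 to 1.08. Against 2 genes called over the whole table, 0 were called without a filter, 1 without robust moderation, 0 with limma-voom, and 0, 8, 61 and 107 without WT replicate 1, WT replicate 2, HET replicate 1 and HET replicate 2, with 0 members each time. The lone library of a genotype is then assumed to vary like the other group. Members with an unadjusted p below 0.05 numbered 3 with limma-voom, 4 with the block and 0 to 7 with 1 library left out. With replicate number as a block, 0 genes and 0 members were called; deviations of same-numbered libraries correlated at 0.12 across genes, and with 2 pairs the numbers are not shown to pair the samples. The causes were not tested. Genes under about 15 reads in all were beyond the depth.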
